A study of Mus musculus with 16 samples.

Results

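The RNA levels of 7 complement genes (C2, C3, C4b, Cfb, Serping1, C3ar1 and C5ar1) were examined in the dorsal skin of mice kept on a diet low in ligands of the aryl hydrocarbon receptor (AhR), with and without dermatitis induced on that diet. They were taken as the rows with these symbols out of 23282 rows in the tables of read counts, and 7 of 7 were found and passed the filter on low counts, which kept 14854 rows. All mice were male C57BL/6N, called C57BL/6 wild type in the labels, bought at 3 weeks of age and adapted for 1 week. Cont mice ate normal chow. LowAhR mice were kept for 12 weeks on the low ligand diet and on paper bedding free of AhR ligands, so diet and bedding cannot be told apart. LowAhR+AD mice had the same diet and bedding and, after 2 weeks, 1% 2,4-dinitrochlorobenzene (DNCB), a hapten that sensitizes skin and is used to model atopic dermatitis (AD), painted on the back 2 times a week for 10 weeks in acetone and olive oil. LowAhR+AD+BJ mice had all of this and, by daily gavage, 1 g/kg of BJIKT (Bojungikgi-tang), a water extract of 8 herbs. Gavage of water alone is not named in the methods for the other groups, so the treatment comparison may include the gavage. A group given only the solvent is not named in the methods, and no group here had DNCB on normal chow, so the DNCB comparison holds for the low ligand diet and includes the solvent. Each group had 4 mice with 1 library each.

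Complement is a cascade of plasma and tissue proteins that marks microbes and damaged cells and calls in leukocytes. The classical pathway (through the C1 complex) and the lectin pathway both cleave C4 and C2 to build an enzyme that splits C3. The alternative pathway builds such an enzyme from C3 itself and factor B. Split C3 coats surfaces, and the small fragments C3a and C5a act on receptors of myeloid and other cells. The liver makes most of the plasma proteins, but fibroblasts, macrophages, keratinocytes and fat cells also make several of them in the skin. Whole skin holds all of these cells, and in such bulk RNA fewer cells of a type and less RNA per cell cannot be told apart.

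All 7 genes lie on the minus strand of the mouse genome (GRCm38, GENCODE M21 gene ends). C2 (chr17:34862604-34898265), Cfb (chr17:34856374-34862518) and C4b (chr17:34728380-34743882) sit in the major histocompatibility complex. Between the 3' end of C2 and the 5' end of Cfb lie 85 bases. C3 is at chr17:57203970-57228136, Serping1 at chr2:84765387-84775444, C3ar1 at chr6:122847138-122856161 and C5ar1 at chr7:16246743-16259540. The libraries (QuantSeq) read 75 bases near the 3' end of each messenger RNA, so a transcript gives about the same number of fragments whatever its length.

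The 250 bases before the start site were read for the 3 members that the RefSeq promoter table (GRCm38.p6) held, because members whose levels move together can be compared at their promoters and because several transcription factors that act on complement genes were measured in the same libraries. C3 (chr17:57228137-57228386, minus strand) and C3ar1 (chr6:122856158-122856407, minus strand) are shown 5' to 3', with the letters that matched a searched motif in capitals. C5ar1 (chr7:16259339-16259588, minus strand) held no match and is shown for comparison. The annotated C5ar1 gene reaches base 16259540, inside this window, so most of the window (bases 16259339 to 16259540) lies within the gene and not before it. The annotated C3ar1 gene reaches base 122856161, so a few bases of its window also lie within the gene.
C3: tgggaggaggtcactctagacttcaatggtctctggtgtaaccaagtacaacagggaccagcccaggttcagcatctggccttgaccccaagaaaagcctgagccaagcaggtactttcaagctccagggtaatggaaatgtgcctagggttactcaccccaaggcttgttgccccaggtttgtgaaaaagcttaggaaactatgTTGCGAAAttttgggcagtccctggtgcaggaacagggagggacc
C3ar1: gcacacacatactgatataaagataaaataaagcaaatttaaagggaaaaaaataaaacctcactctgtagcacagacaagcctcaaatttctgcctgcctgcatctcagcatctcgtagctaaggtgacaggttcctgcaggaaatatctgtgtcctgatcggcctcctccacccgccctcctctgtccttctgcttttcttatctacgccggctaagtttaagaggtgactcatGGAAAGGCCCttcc
C5ar1: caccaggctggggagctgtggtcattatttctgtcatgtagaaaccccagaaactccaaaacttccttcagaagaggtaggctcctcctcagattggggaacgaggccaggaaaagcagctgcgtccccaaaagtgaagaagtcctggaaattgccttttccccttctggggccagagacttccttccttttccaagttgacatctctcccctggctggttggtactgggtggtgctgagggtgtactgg
Both strands were searched for 5 short motifs. The C/EBP letters TTGCNNAA matched in C3 at position -45 from the start site, and 9.56% of 32851 promoters of the same length held a match. The NF-kB letters (GGG, any 2 bases, TTTCC) matched in C3ar1 at position -14 on the opposite strand, and 1.41% of promoters held a match. The STAT letters TTCNNNGAA (in 7.02% of promoters), the core of the AhR element GCGTG (28.2%) and the interferon element GAAA, any 2 bases, GAAA (2.98%) matched in 0 of the 3. A match is a description of the letters and not a site of binding.

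Library totals were 7080508 to 13467477 counts, and both DNCB groups had higher totals than the other groups without overlap. The labelled tissue was checked on marker lists of 13 kinds of cells and structures of skin and its surroundings, and keratinocyte markers summed to 7748 to 16570 CPM (counts scaled to library size) over all libraries. LowAhR+AD replicate 1 stood apart. Of 1220 genes expected there at 20 to 40 counts, 32.6% had 0 counts, against 1.03% to 13.8% in the other libraries. It had the lowest level of its group for 7 of 7 complement genes, and for 44.7% of all tested genes, so the results on LowAhR+AD that moved without it are also given without it.

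The 7 genes shared an order of group means in part. LowAhR had the highest mean for 7 of 7 genes, and LowAhR+AD had the lowest for 5, C4b being lowest in Cont and C5ar1 in LowAhR+AD+BJ. Most of these differences were within the spread between mice. In 6 comparisons of groups, tested with edgeR's quasi-likelihood test on counts with Benjamini-Hochberg adjustment over all 14854 genes, 1 difference of 1 gene passed an adjusted p of 0.05. It was the lower level of Cfb in LowAhR+AD than in LowAhR, a comparison in which 12.6% of all genes were called, and for none of the 7 genes did groups next to each other in the order of means pass the test. Levels are CPM on library sizes scaled by TMM.

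**Figure D1:**
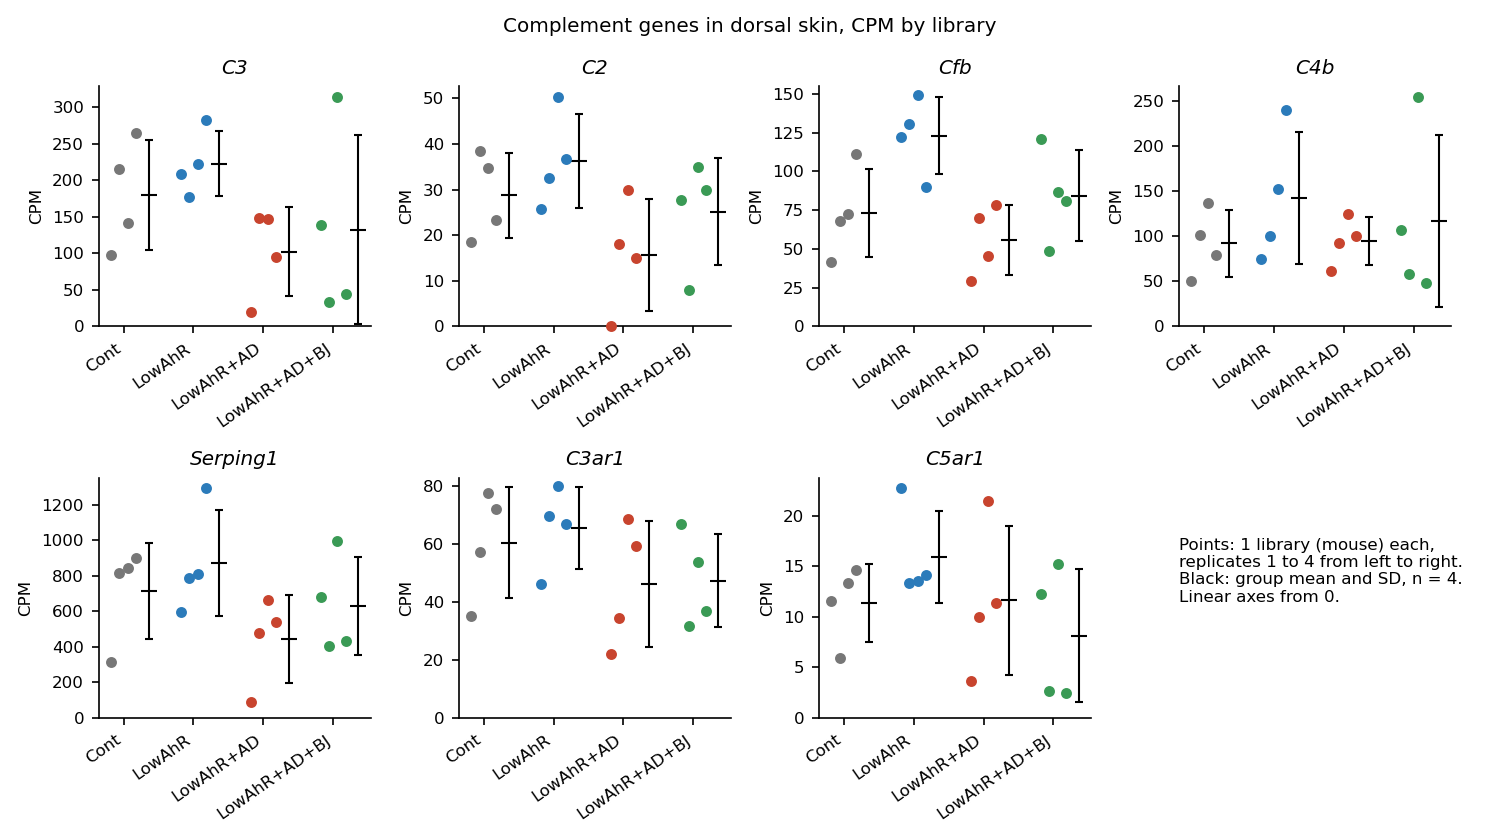
CPM of the 7 complement genes on linear axes from 0, with 1 point per library (replicates 1 to 4 from left to right) and the group mean with its SD (n = 4) in black. LowAhR has the highest mean in 7 of 7 panels, and the leftmost LowAhR+AD point is the lowest of its group in each.

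Cfb encodes factor B, the serine protease of the C3-splitting enzyme of the alternative pathway. In Cont its level was 41.6, 67.7, 72.6 and 111 CPM in replicates 1 to 4, and in LowAhR it was 122, 131, 149 and 90.0 CPM. In LowAhR+AD it was 29.2, 69.7, 45.1 and 78.4 CPM, so the highest LowAhR+AD library stood below the lowest LowAhR library. The LowAhR+AD+BJ libraries had 121, 48.7, 86.8 and 81.1 CPM, a range that overlapped with every other group. The LowAhR+AD mean (55.6 ± 22.6 CPM, SD, n = 4) was 0.452 times that of LowAhR (123 ± 24.8 CPM), or -1.15 on the log2 scale (SE 0.34, 95% interval -1.85 to -0.44, edgeR adjusted p = 0.0320). With LowAhR+AD replicate 1 left out, the value was -0.94 and the adjusted p was 0.0732. The call was also lost without LowAhR+AD replicate 3 (-1.06, adjusted p = 0.0682) and without LowAhR replicate 1 (-1.15, 0.0667), 2 (-1.12, 0.0718) or 3 (-1.03, 0.0876), so it held in 3 of 8 such fits, and its direction held in 8 of 8. A model of only the 8 libraries compared gave an adjusted p of 0.0611. In the other direction on the diet axis, Cfb was 1.68 times higher in LowAhR than in Cont, a log2 fold change of 0.75 (SE 0.33, adjusted p = 0.325, unadjusted p = 0.0378 in the edgeR model), with 1 LowAhR library inside the Cont range.

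C3 is the protein on which all pathways of complement converge. It was measured at 97.1, 215, 141 and 265 CPM in Cont and at 208, 177, 222 and 283 CPM in LowAhR. The LowAhR+AD libraries had 19.1, 148, 147 and 94.5 CPM, all below the lowest LowAhR library. The LowAhR+AD+BJ libraries had 139, 33.6, 313 and 44.0 CPM and thus held both a level above every library of the other groups and levels below all but 1. The mean was 223 ± 44.2 CPM in LowAhR and 102 ± 60.6 CPM in LowAhR+AD, which is -1.13 on the log2 scale (SE 0.60, 95% interval -2.40 to 0.14, edgeR adjusted p = 0.234). Without LowAhR+AD replicate 1 it was -0.78 (adjusted p = 0.402).

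C4b and C2 act together in the classical and lectin pathways, C4b as the mouse C4 protein that binds to surfaces and C2 as the protease that joins it. C4b stood at 74.4, 100, 152 and 240 CPM in LowAhR and at 61.2, 92.1, 125 and 100 CPM in LowAhR+AD. Its Cont libraries ranged from 50.1 to 137 CPM and its LowAhR+AD+BJ libraries from 47.9 to 255 CPM, so all groups overlapped. The log2 fold change of LowAhR+AD against LowAhR was -0.58 (SE 0.46, adjusted p = 0.441), and -0.42 (adjusted p = 0.648) without LowAhR+AD replicate 1. C2 was measured at 25.7, 32.5, 50.2 and 36.6 CPM in LowAhR and at 0, 17.97, 29.8 and 14.9 CPM in LowAhR+AD. The 0 is LowAhR+AD replicate 1, where a count of 0 allows up to 0.229 CPM. The Cont libraries had 18.5 to 38.4 CPM of C2 and the LowAhR+AD+BJ libraries 8.04 to 34.9 CPM. The log2 fold change of C2 for LowAhR+AD against LowAhR was -1.21 (SE 0.76, adjusted p = 0.317) with that library and -0.80 (adjusted p = 0.237) without it.

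Serping1 encodes the C1 inhibitor, which inactivates the proteases that start the classical and lectin pathways, and it had the highest CPM of the 7 genes in every group. Its levels were 314, 812, 840 and 897 CPM in Cont and 594, 786, 810 and 1292 CPM in LowAhR. They were 87.7, 479, 661 and 538 CPM in LowAhR+AD and 681, 406, 997 and 432 CPM in LowAhR+AD+BJ, and the highest LowAhR+AD library lay above the lowest LowAhR library. The mean was 441 ± 248 CPM in LowAhR+AD and 870 ± 297 CPM in LowAhR, which is -0.98 on the log2 scale (SE 0.47, 95% interval -1.98 to 0.02, adjusted p = 0.186). Without LowAhR+AD replicate 1 it was -0.64 (adjusted p = 0.290).

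The receptors C3ar1 (for C3a) and C5ar1 (for C5a), which signal through G proteins on myeloid cells, had the smallest log2 fold changes in the DNCB comparison. C3ar1 was measured at 35.05 to 77.6 CPM in Cont, 46.3 to 80.0 in LowAhR, 21.8 to 68.7 in LowAhR+AD and 31.8 to 66.8 in LowAhR+AD+BJ. Its log2 fold change for LowAhR+AD against LowAhR was -0.51 (SE 0.34, adjusted p = 0.350), and -0.28 (adjusted p = 0.630) without LowAhR+AD replicate 1. C5ar1 was the lowest of the 7 genes, with 5.94 to 14.6 CPM in Cont, 13.3 to 22.7 in LowAhR, 3.66 to 21.5 in LowAhR+AD and 2.42 to 15.2 in LowAhR+AD+BJ. Its log2 fold change for the same comparison was -0.45 (SE 0.57, adjusted p = 0.654), and the 95% interval of -1.66 to 0.75 leaves room for a sizeable difference either way. Without that library it was -0.16 (adjusted p = 0.895). Its counts were even numbers in all 16 libraries, as were those of 38 of 13967 genes counted in at least 12 libraries, so the number of independent reads behind its level may be smaller than the count, and the cause was not tested.

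The diet comparison, LowAhR against Cont, set the low ligand diet with its bedding against normal chow, without DNCB. The LowAhR mean was higher for 7 of 7 genes, with log2 fold changes from 0.12 (C3ar1) to 0.75 (Cfb) and a median of 0.34, against a median of 0.026 over all tested genes, of which 51.6% were higher. None of these differences passed the test. By edgeR's quasi-likelihood test 0 of 7 members were called and 1 had an unadjusted p under 0.05. The background by edgeR was 0% of all genes called, with 2031 genes at an unadjusted p under 0.05. DESeq2 and limma voom also called 0 of the 7, beside 493 and 0 of all 14854 genes. Of the 7 genes, 0 had groups without overlap, against 5.68% of all genes that were higher in LowAhR without overlap.

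The DNCB comparison, LowAhR+AD against LowAhR, had lower means for 7 of 7 genes. The median log2 fold change was -0.98, against 0.038 over all tested genes, of which 48.0% were lower. The 1 gene called, Cfb, was lower, beside a background of 12.6% of all genes called in either direction and 6.21% called lower. Cfb and C3 were lower without overlap between the groups, beside 9.85% of all genes. Without LowAhR+AD replicate 1, 7 of 7 means were still lower, the median was -0.64, and 0 were called.

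Against Cont, the LowAhR+AD mean was lower for 5 genes and slightly higher for C4b (log2 fold change 0.04, SE 0.46) and C5ar1 (0.03, SE 0.57). The median was -0.40, with log2 fold changes of -0.87 for C2 (adjusted p = 0.453), -0.82 for C3 (adjusted p = 0.369) and -0.70 for Serping1 (adjusted p = 0.322) at the low end. By edgeR 0 of 7 were called and 0 had an unadjusted p under 0.05, beside 21.8% of all genes called. DESeq2 and limma voom also called 0 of the 7, beside 3886 and 3206 of all 14854 genes. Without LowAhR+AD replicate 1 the median was -0.20, and the values were -0.47 for C2 (adjusted p = 0.449), -0.48 for C3 (0.577), -0.37 for Serping1 (0.513), 0.19 for C4b (0.827) and 0.32 for C5ar1 (0.736). This comparison shares its LowAhR+AD libraries with the DNCB comparison and its Cont libraries with the diet comparison.

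The treatment comparison, LowAhR+AD+BJ against LowAhR+AD, had higher means for 6 genes and a lower mean for C5ar1. C2 had a log2 fold change of 0.68 (SE 0.75), Cfb 0.60 (SE 0.33, 95% interval -0.10 to 1.30, adjusted p = 0.569) and Serping1 0.51 (SE 0.47). C3 was at 0.38 (SE 0.60), C4b at 0.30 (SE 0.46), C3ar1 at 0.04 (SE 0.34) and C5ar1 at -0.51 (SE 0.58). The median was 0.38, against -0.00024 over all genes, and 50.0% of all genes were higher. By edgeR 0 of 7 were called and 0 had an unadjusted p under 0.05, beside a background of 0% of all genes called. DESeq2 and limma voom also called 0 of the 7, beside 17 and 0 of all 14854 genes. C2, Cfb and Serping1 had higher means in each of the 8 fits that left out 1 library, while C3, C4b and C3ar1 turned in at least 1 of them. LowAhR+AD+BJ replicate 3 had the highest level of its group for 5 of the 7 genes, and without it 3 genes were higher and 4 lower, with a median of -0.032. Without LowAhR+AD replicate 1, 5 were higher and 2 lower, with a median of 0.14 and values of 0.27 for C2, 0.025 for C3, 0.14 for C4b, 0.39 for Cfb, 0.16 for Serping1, -0.19 for C3ar1 and -0.81 for C5ar1.

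LowAhR+AD+BJ also stood below LowAhR for 7 of 7 genes, with a median log2 fold change of -0.53 and values from -0.96 for C5ar1 (SE 0.58, adjusted p = 0.361) to -0.28 for C4b (SE 0.46, adjusted p = 0.787). Against Cont it was higher for C4b (0.35) and Cfb (0.20) and lower for the other 5 genes, with a median of -0.19. By edgeR 0 members were called in either comparison and 0 had an unadjusted p under 0.05. The background by edgeR was 6.77% of all genes called against LowAhR and 19.9% against Cont. DESeq2 and limma voom also called 0 members. Of all 14854 genes they called 1666 and 1005 against LowAhR, and 3606 and 2690 against Cont. These comparisons share their LowAhR+AD+BJ libraries with the treatment comparison.

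**Figure D2:**
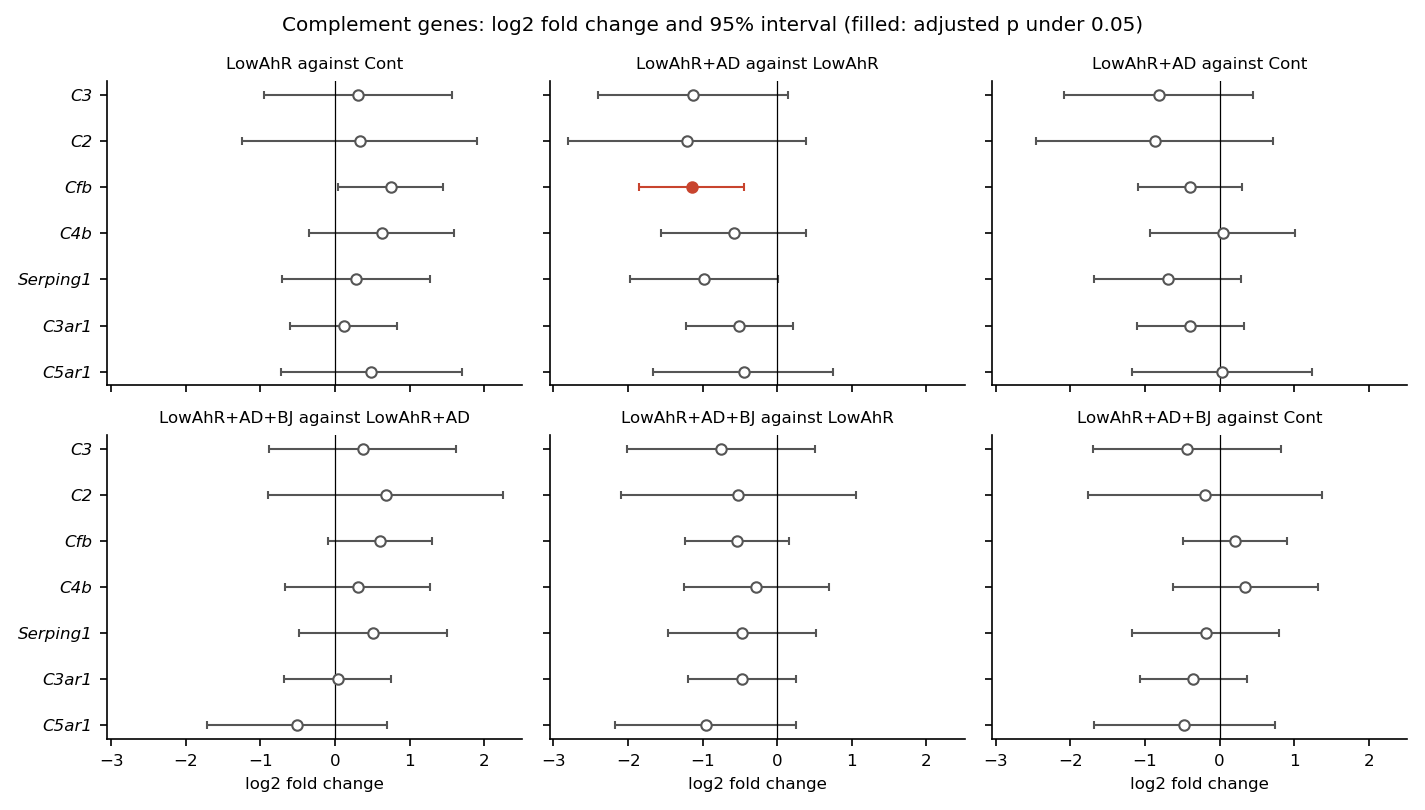
Log2 fold change (first group against second, edgeR) of the 7 genes in the 6 comparisons, with 95% intervals as bars. The filled point, Cfb at -1.15 in LowAhR+AD against LowAhR, is the 1 difference with an adjusted p under 0.05, and most other intervals include 0.

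The spread between mice was wide for these genes. The coefficient of variation ran from 31.5% (C3ar1) to 41.7% (C3) in Cont, from 19.9% (C3) to 51.6% (C4b) in LowAhR, from 27.8% (C4b) to 78.3% (C2) in LowAhR+AD and from 33.9% (C3ar1) to 97.9% (C3) in LowAhR+AD+BJ. Across all 16 libraries the log2 CPM of pairs of members had a Pearson r from 0.386 (C4b with Cfb) to 0.896 (C2 with Serping1), and the latter was 0.861 after group means were removed. These values describe the 16 libraries, which include the low LowAhR+AD replicate 1, and carry no test.

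The genes whose log2 CPM was most like each member over the 16 libraries were taken from 9389 genes with a mean of at least 10 CPM. For Serping1 they were Clec10a (r = 0.965), a lectin of macrophages and dendritic cells, Lyz1 (0.961), a lysozyme, and the C1 protease gene C1ra (0.958). For C2 they were H2-T22 (0.963) and H2-T9 (0.962), nonclassical class I genes of the same complex on chromosome 17, and Cnep1r1 (0.960). For C3 they were Inmt (0.928), Antxr2 (0.920) and Cd209b (0.910). For Cfb they were Ntrk2 (0.891), S100a4 (0.886) and Adgre1 (0.883), the last being the macrophage marker F4/80. C3ar1 was most like Man1c1 (0.900), Mdfic (0.890) and Mmp2 (0.887), and C5ar1 was most like P4ha1 (0.859), 4632428N05Rik (0.848) and Hcls1 (0.838). C4b was most like its near copy C4a (0.883), followed by Jak1 (0.866) and Pea15a (0.860). All of these r values include LowAhR+AD replicate 1, where C2 had 0 counts. The part of that library in them was not tested.

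C4a and C4b lie 65.2 kb apart and share sequence. Of the 426 windows of 75 bases in the last 500 bases of the C4b transcript, 113 (26.5%) also occur in C4a, so reads could be assigned to either. C4a took 16.8 ± 4.56% of the counts on both genes in Cont, 20.2 ± 4.58% in LowAhR, 16.3 ± 1.14% in LowAhR+AD and 18.4 ± 2.11% in LowAhR+AD+BJ (SD, n = 4), and these ranges overlapped. The log2 fold change of C4a was 0.82 for LowAhR against Cont (adjusted p = 0.406) and -0.82 for LowAhR+AD against LowAhR (adjusted p = 0.209), and with both genes counted as 1 row, an alternative chosen after seeing the data, the values were 0.66 and -0.62. A similar limit holds for Cfb, since 91.1% of such windows of Cfb also occur in the annotated same-strand transcripts of Gm20547, which spans Cfb and C2 and is not a row of the tables used here. For C2 the share was 0%. Zbtb12 overlaps C2 on the other strand.

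The other genes of the complement system were read from a list of 45, of which 45 had rows and 29 were tested. In LowAhR+AD against LowAhR, 24 of the 29 had lower means and 5 had higher, with a median log2 fold change of -0.75, and 5 fell and 0 rose by the edgeR test, beside the background of 12.6% of all genes called and 6.21% called lower. There were 23 with lower means (median -0.53) and 5 that fell without LowAhR+AD replicate 1. In LowAhR against Cont 21 had higher means and 8 lower (median 0.40), with 0 called. In LowAhR+AD+BJ against LowAhR+AD 24 had higher means and 5 lower (median 0.40), again with 0 called, and without LowAhR+AD replicate 1 20 had higher means and 9 lower (median 0.038).

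Among the other genes of the alternative pathway, Cfd stood out by level. It encodes factor D, also called adipsin, which cleaves factor B and is made in quantity by fat cells. It was measured at 2669, 2324, 2254 and 2570 CPM in LowAhR and at 86.0, 664, 604 and 1138 CPM in LowAhR+AD, with no overlap. It fell in LowAhR+AD against LowAhR by 1.98 on the log2 scale (SE 0.46, edgeR adjusted p = 0.0105), and by 1.62 (adjusted p = 0.0011) without LowAhR+AD replicate 1, with the call lost in a model of only the 8 libraries compared (adjusted p = 0.0724). It also fell against Cont, by 1.42 (adjusted p = 0.0333), a call lost without Cont replicate 1, 3 or 4 or LowAhR+AD replicate 2 or 3 (adjusted p-values of 0.0501 to 0.0868) and in the model of 8 libraries (0.117). Its LowAhR+AD+BJ level (647 to 932 CPM) was below that of LowAhR, at -1.61 on the log2 scale (adjusted p = 0.0424). That last call was lost in 8 of 8 fits that left out 1 library, with adjusted p-values of 0.0566 to 0.126, and with limma voom (0.0579) and the replicate block (0.0622). Cfp, which encodes properdin, a stabilizer of the C3-splitting enzyme of this pathway, was not called in any comparison.

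The C1 complex, which starts the classical pathway, had higher means in LowAhR than in Cont for 7 of 7 genes (median 0.49), lower means in LowAhR+AD than in LowAhR for 7 of 7 (median -0.51) and higher means in LowAhR+AD+BJ than in LowAhR+AD for 7 of 7 (median 0.41). In each of these comparisons 0 of the 7 were called in the model of all libraries. In the model of 8 libraries, C1qc was called higher in LowAhR than in Cont (1.16, adjusted p = 0.0374), beside 250 of 13574 genes. Against Cont it was also called higher in LowAhR+AD+BJ in such a model (1.09, 0.0298), beside 3619 of 13852 genes. In LowAhR+AD without replicate 1 it was called higher than in Cont (0.99, 0.0446), beside 3486 of 15028 genes. Without LowAhR+AD replicate 1, 7 of 7 C1 genes were still lower in LowAhR+AD than in LowAhR (median -0.16). Without it 5 of 7 were higher in LowAhR+AD+BJ than in LowAhR+AD (median 0.058). In the lectin pathway 4 of 9 listed genes were tested, and 1, the scavenger receptor gene Colec12, was called. It was at 20.6 to 33.2 CPM in Cont and 2.90 to 15.1 CPM in LowAhR+AD (log2 fold change -1.37, adjusted p = 0.0492). The call was lost in 7 of 8 fits that left out 1 library, all but that without LowAhR+AD replicate 3, with adjusted p-values of 0.0597 to 0.113 and a value of -1.07 without LowAhR+AD replicate 1. It was also lost in 4 of 7 other fits, namely without the filter (0.0571), with the replicate block (0.0704), in the model of 8 libraries (0.0653) and on library sizes without muscle, follicle and fat markers (0.0509).

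Of the terminal pathway, which forms the pore of the membrane attack complex, 3 of 7 genes were tested. C6 was at 19.9 to 56.8 CPM in LowAhR and 0 to 10.6 CPM in LowAhR+AD, and it fell by 2.60 on the log2 scale (SE 0.77, adjusted p = 0.0343), or by 2.19 (adjusted p = 0.0125) without LowAhR+AD replicate 1. The call was lost without LowAhR replicate 2 (-2.18, adjusted p = 0.107) or 3 (-2.73, 0.0516) and without LowAhR+AD replicate 2 (-2.59, 0.0745) or 4 (-2.60, 0.0723), as well as in the model of 8 libraries (0.116). Against Cont, C6 was called lower in LowAhR+AD with DESeq2 (-1.97, 0.0269) and the replicate block (-2.19, 0.032), beside 3886 and 2990 of all 14854 genes. It was also called there in 2 of 8 fits that left out 1 library. C7 had 11, 98, 55 and 75 counts in LowAhR and 0, 7, 5 and 0 counts in LowAhR+AD, a fall with an adjusted p of 0.0161 (0.0267 without LowAhR+AD replicate 1). It also fell in LowAhR+AD (adjusted p = 0.0045) and LowAhR+AD+BJ (adjusted p = 0.0178, or 0.0585 without Cont replicate 3) against Cont. Against LowAhR, C7 was called lower in LowAhR+AD+BJ with DESeq2 (-3.46, 0.0121) and the replicate block (-3.69, 0.0481), beside 1666 and 947 of all 14854 genes. It was also called there in 1 of 8 fits that left out 1 library. C8g was not called in the model of all libraries. In LowAhR+AD against Cont it was called lower with DESeq2 (-4.29, 0.0341) and limma voom (-4.23, 0.0318), beside 3886 and 3206 of all 14854 genes. In LowAhR+AD+BJ against Cont limma voom called it lower (0.0337), beside 2690 genes, as did 1 of 8 fits that left out 1 library. Its mean was 2.32 CPM in Cont and 0.121 CPM in LowAhR+AD. Hc, which encodes C5, was at 0 in 12 of 16 libraries and at 1.40 CPM or less in the others.

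Inhibitors of the cascade went in more than 1 direction. Cd59a, which blocks the pore on cell surfaces, was at 212, 185, 235 and 166 CPM in LowAhR and 52.4, 51.6, 45.0 and 82.4 CPM in LowAhR+AD. It fell by 1.79 on the log2 scale (SE 0.21, edgeR adjusted p = 1.48e-04), with nearly the same value without LowAhR+AD replicate 1 (-1.75, adjusted p = 2.2e-04). It also fell in LowAhR+AD against Cont (-1.20, adjusted p = 9.05e-04), in LowAhR+AD+BJ against LowAhR (-1.35, adjusted p = 0.00156) and in LowAhR+AD+BJ against Cont (-0.76, adjusted p = 0.0157), the last lost without Cont replicate 4 (0.0525) or LowAhR+AD+BJ replicate 4 (0.0592). Cd55, which speeds the decay of the C3-splitting enzymes, had 15.5 to 21.5 CPM in LowAhR and 5.94 to 11.1 CPM in LowAhR+AD and fell (-1.08, adjusted p = 0.0450), a call kept only without LowAhR+AD replicate 1 or 2 among the 8 fits that left out 1 library (0.0723 to 0.112 in the others), and lost without the filter (0.0685) and in the model of 8 libraries (0.0984). It also fell against Cont (-1.22, adjusted p = 0.0159, or 0.0517 without LowAhR+AD replicate 4). Clu (clusterin), a secreted chaperone that binds the terminal complex, rose against Cont in LowAhR+AD (1.33, SE 0.35, adjusted p = 0.0111) and in LowAhR+AD+BJ (1.08, SE 0.34, adjusted p = 0.0348), the latter kept in 1 of 8 fits that left out 1 library, that without LowAhR+AD+BJ replicate 1 (0.0504 to 0.098 in the others). Its value in LowAhR+AD against LowAhR was 1.06 (adjusted p = 0.0506). The adjusted p was 0.0199 to 0.0496 in 6 of 7 other fits and 0.150 in the model of 8 libraries. Of 8 fits that left out 1 library, 2 called it (adjusted p-values of 0.00634 to 0.138). Without LowAhR+AD replicate 1 the value was 0.77 (0.138). Among complement receptors outside the 7 genes, 5 of 6 were tested and 0 were called in any comparison in the edgeR model of all libraries. Itgax was called lower in LowAhR+AD than in Cont with DESeq2 (-1.91, adjusted p = 0.0401) and limma voom (-3.03, adjusted p = 0.0406). These fits called 3886 and 3206 of all 14854 genes. The mean of Itgax was 8.23 CPM in Cont and 2.23 CPM in LowAhR+AD, where 1 library was at 0.

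**Figure D3:**
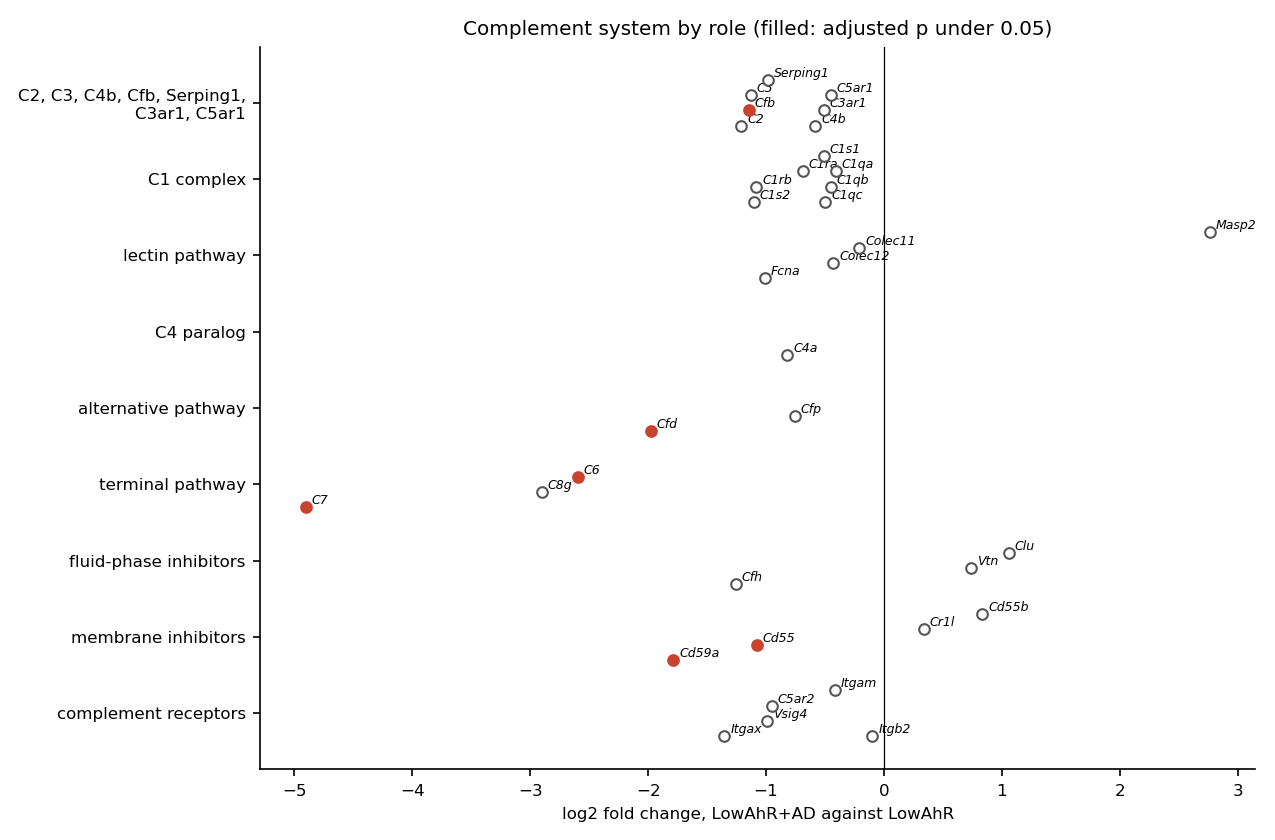
Log2 fold change of each tested complement gene in LowAhR+AD against LowAhR, with 1 point per gene, grouped by role. Filled points have an adjusted p under 0.05, and those are Cfb, Cfd, C6, C7, Cd55 and Cd59a, all to the left of 0.

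Cytokines and transcription factors known to induce complement genes were listed as 11 genes, of which 8 were tested. Il1b, an inflammatory cytokine, had 5.28 to 20.9 CPM in LowAhR and 26.5 to 82.7 CPM in LowAhR+AD and rose (log2 fold change 2.20, SE 0.61, adjusted p = 0.0245), a call lost without LowAhR replicate 1 (0.0781), 2 (0.0740) or 4 (0.0568) or LowAhR+AD replicate 4 (0.0824), with limma voom (0.127) and with the replicate block (0.0505). It also rose in LowAhR+AD against Cont (2.27, adjusted p = 0.0129, or 0.0523 without LowAhR+AD replicate 4 and 0.111 with limma voom), in LowAhR+AD+BJ against LowAhR (3.22, adjusted p = 0.0067, or 0.0794 with limma voom) and in LowAhR+AD+BJ against Cont (3.29, adjusted p = 0.0018). The 2 C/EBP factors went opposite ways in LowAhR+AD against LowAhR: Cebpb rose by 1.04 (adjusted p = 0.0432) and Cebpd fell by 1.27 (adjusted p = 0.0158, or 0.0529 without LowAhR replicate 1 and 0.0671 in the model of 8 libraries). Cebpb stood at 206 CPM in LowAhR+AD replicate 1 and at 67.2 to 84.6 CPM in the other libraries of the group. Without that library its value was 0.54 (adjusted p = 0.196), and its call was also lost without any 1 of the LowAhR libraries (0.0597 to 0.113), with RLE factors (0.0509), with limma voom (0.0714) and in the model of 8 libraries (0.114). Cebpd was at -1.001 (adjusted p = 0.0147) without LowAhR+AD replicate 1. Nfkbiz was lower in LowAhR+AD than in Cont (-0.92, adjusted p = 0.0390), a call lost without Cont replicate 2 or 3 or LowAhR+AD replicate 2, 3 or 4 (0.0625 to 0.108) and in the model of 8 libraries (0.0858). Ifng, Il17a and Il6 were at or near 0 in most libraries, with 9.40 CPM of Il6 in 1 LowAhR+AD+BJ library as the highest.

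Some marker lists of cell types that make complement proteins were lower in LowAhR+AD, as these genes were, and others were not. The 8 fibroblast markers summed to 29166 to 55605 CPM in LowAhR and 4188 to 23254 CPM in LowAhR+AD. Of these, 6 had lower means and 2 higher (log2 fold change up to 0.68), with 3 called lower. The 6 adipocyte markers summed to 4972 to 9302 and 223 to 2597 CPM, with 6 of 6 lower and 5 called lower. The 8 macrophage markers summed to 632 to 764 CPM in LowAhR and 69.8 to 621 CPM in LowAhR+AD. Of 7 tested, 6 had lower means, 1 was higher (0.66) and 0 were called. The 7 T cell markers summed to 24.7 to 39.8 and 1.22 to 17.3 CPM, with 7 of 7 lower and 2 called lower. In these groups 0 of the genes of those 4 lists were at 0 in all libraries. The keratinocyte markers summed to 8275 to 12984 CPM in LowAhR and 9333 to 16570 CPM in LowAhR+AD, with 5 of 8 higher (median log2 fold change 0.76) and 2 called higher. The LowAhR+AD library with the lowest sums of the fibroblast, adipocyte, macrophage and T cell lists was again replicate 1. The 8 skeletal muscle markers summed to 8182 to 22441 CPM in LowAhR and 468 to 3824 CPM in LowAhR+AD, with 8 called lower, and hair follicle markers summed to 93.7 to 8318 CPM in LowAhR and 6261 to 21107 CPM in LowAhR+AD. Neutrophil markers summed to 5.97 to 14.7 CPM in LowAhR and 16.8 to 81.6 CPM in LowAhR+AD. The part of these lists in the levels of the complement genes was not tested. With library sizes computed without the muscle, follicle and fat markers, the median of the 7 genes was -0.97 and Cfb was still called. That setting changes only the scaling of the libraries, so it cannot show the part of these lists.

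Along the diet axis, the adipocyte markers summed to 1643 to 3724 CPM in Cont, below every LowAhR library, and the macrophage markers to 267 to 653 CPM, overlapping with LowAhR. The fibroblast markers went the other way, with a mean sum of 52510 CPM in Cont (28680 to 71216) and 37131 CPM in LowAhR, 6 of 8 lower in LowAhR (median -0.44) and 0 called. The 5 erythroid markers summed to 1024 to 1411 CPM in Cont and 2728 to 4270 CPM in LowAhR, with 5 of 5 higher (median 1.42) and 0 called. The hair follicle markers had 21.2 to 904 CPM in Cont and 8 of 8 higher in LowAhR (median 3.13), again with 0 called. The LowAhR+AD+BJ sums were 11432 to 20656 CPM for fibroblast, 1776 to 2778 CPM for adipocyte, 356 to 816 CPM for macrophage and 9.86 to 25.6 CPM for T cell markers, and each range overlapped with that of LowAhR+AD.

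**Figure D4:**
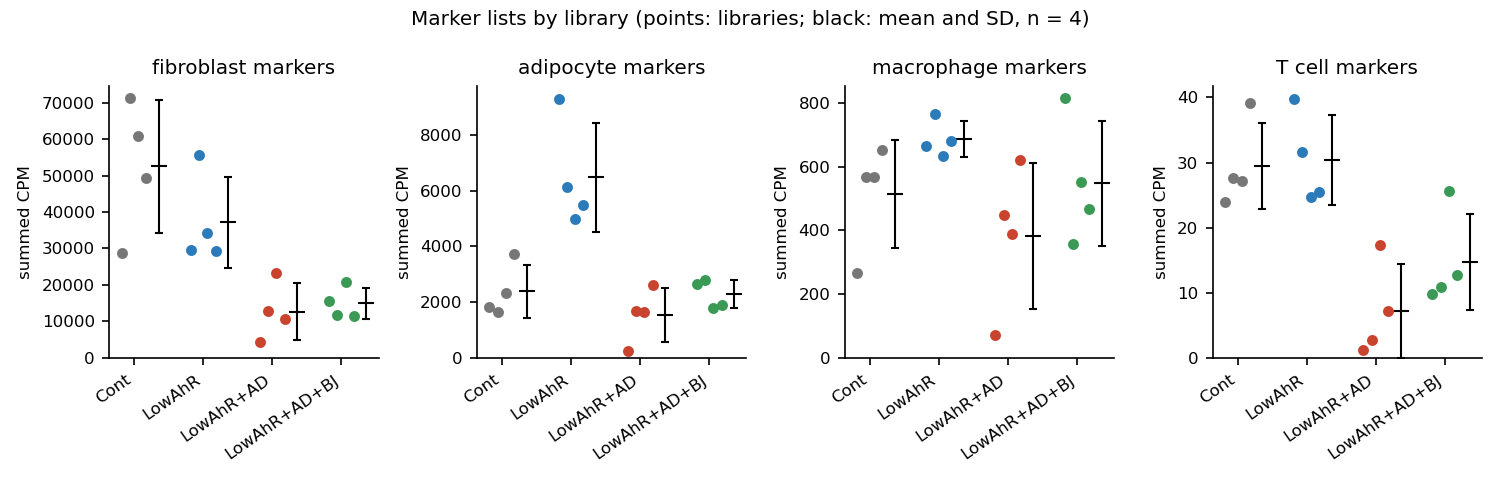
Summed CPM of the fibroblast, adipocyte, macrophage and T cell marker lists on linear axes from 0, with 1 point per library and the group mean with its SD (n = 4) in black. In each panel the 4 LowAhR+AD points lie below all 4 LowAhR points.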

How the data were processed

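Dorsal skin RNA of 16 mice was made into QuantSeq 3' libraries and sequenced as single 75-base reads on a NextSeq 500. Per the submitters' processing notes, Bowtie2, bedtools and mm10 (GRCm38) were used, and for differential expression the methods name ExDEGA. The counting settings, annotation and handling of reads that map to several genes are not given in the sources used here. The authors deposited for each library a table of read counts by gene symbol, not normalized. Each table had 23282 rows, 0 without a name.

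Groups and replicate numbers were taken from the labels. Testing used edgeR 4.0.16 under R 4.3.3 (filterByExpr, minimum count 10, minimum total 15; TMM factors; quasi-likelihood test with all 16 libraries in 1 model). p-values were adjusted by Benjamini-Hochberg over 14854 genes and called under 0.05. Standard errors were derived from the fitted change and its F statistic. Levels are CPM, log2 CPM used a prior count of 2, and a 0 was given an upper limit of 3 counts, which covers counting error only. Chi-square per degree of freedom between replicates of a group was 16.4 to 285, so no replicate of a group was a repeat of another. The fits were tested on simulated data. Alternatives were RLE factors, DESeq2 1.42.0, limma voom (limma 3.58.1), no filter, a replicate block, a model of only the 8 libraries compared, library sizes without muscle, follicle and fat markers, each library left out, and, added after seeing the data, C5ar1 counts halved and C4b and C4a summed.

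Named genes were the 7 members, other complement genes or inducers called in at least 1 comparison, C4a, and the 3 genes most like each member. Itgax, C1qc and C8g were named for calls in alternative fits. Members and lists were chosen with earlier results of these data known. Gene positions and transcripts came from GENCODE M21, and promoters from RefSeq.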

Additional observations from a re-analysis of the deposited data

Results flagged for a closer look

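Within each group of 4 mice, the highest and lowest library of each of the 7 complement genes was compared with its nearest neighbour relative to the range of the group, and 2 of 28 sets of values had a library farther away than Dixon's 95% critical value for groups of 4. Chance flags about 1 in 20 such sets. Serping1 in Cont had replicate 1 at 314 CPM, while the other libraries of the group had 812 to 897 CPM. The same library had the lowest level of its group for 6 of the 7 genes. C5ar1 in LowAhR had replicate 1 at 22.7 CPM, while the other libraries had 13.3 to 14.1 CPM.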

How the results depend on the processing

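Of 642 recomputed log2 fold changes of the 7 genes, 619 kept their direction and their side of the threshold. The call of Cfb in LowAhR+AD against LowAhR, the only member called, was lost in a model of only the 8 libraries compared (0 members called, Cfb adjusted p = 0.0611, with fewer libraries to estimate the spread), and the count ranged from 0 to 1 as each library was left out. It was lost without LowAhR replicate 1 (0.0667), 2 (0.0718) or 3 (0.0876) and without LowAhR+AD replicate 1 (0.0732) or 3 (0.0682), and the cause was not tested. No other member was called in any setting.

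Directions turned for log2 fold changes near 0 or set by 1 library. With limma voom C5ar1 in LowAhR+AD against Cont was -0.17. As each library was left out, values ranged from -0.076 to 0.26 for C3ar1 in LowAhR against Cont. In LowAhR+AD against Cont they ranged from -0.16 to 0.31 for C4b and from -0.44 to 0.32 for C5ar1. In LowAhR+AD+BJ against LowAhR+AD they were -0.19 to 0.30 for C3ar1, -0.51 to 0.68 for C3 and -0.42 to 0.56 for C4b, the last 2 being negative only without LowAhR+AD+BJ replicate 3. In LowAhR+AD+BJ against LowAhR they were -0.99 to 0.10 for C4b. In LowAhR+AD+BJ against Cont they were -0.019 to 0.48 for Cfb, -0.39 to 0.10 for C2 and -0.37 to 0.61 for C4b.

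The labels number the replicates but do not say that the numbers pair mice. Deviations from the group means correlated at -0.055 to 0.17 over 24 same-number pairs, with 3 above 0.1. The median was -0.0074 for these pairs and -0.0094 for pairs of other numbers, and 7 of 16 libraries correlated best with their own number. These values cannot show whether the numbers pair mice. With the replicate number as a block, 1 member was called in LowAhR+AD against LowAhR (Cfb, -1.20, adjusted p = 0.0430), 0 in the other comparisons, and no member's call changed. All genes called in LowAhR+AD against LowAhR were 1876 in the model of all libraries, 2673 with DESeq2 and 765 in the model of 8 libraries, and in LowAhR against Cont DESeq2 called 493 where edgeR called 0.

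With 4 mice a group, intervals of the fold changes were wide for most members, so a comparison without a call does not show equal levels, and C5ar1 and C2 rest on the fewest counts.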
